A study of Mus musculus with 7 samples.

Results

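The comparison set the array of Utx knockout (KO) embryonic stem cells (ESCs) against the array of wild-type (WT) ESCs, gene by gene. Both arrays were of the mouse line V6.5, and they were 2 of the 7 arrays in the series. Members were the array rows that carry a single gene symbol, with the row of highest mean over the 7 arrays standing for a gene with several rows, which gave 13562 genes. Of these, 8598 exceeded a floor in at least 1 of the ESC arrays, and the other 4964 did not. The floor was 7.34, the 40th percentile of all values in the table. Values are log2 intensities as deposited by the authors, and a difference is KO minus WT on that scale, so that -1 is a 2-fold lower level in the KO cells.

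The study compared cells labelled as having an intact Utx gene beside a Y chromosome (Utx +/Y, WT) with cells labelled as lacking it (Utx -/Y, KO). Each genotype was profiled as V6.5 ESCs and as fibroblasts from embryos (MEFs) that carry doxycycline-inducible Oct4, Sox2, Klf4 and Myc, without and with doxycycline. The seventh array held Nanog -/- MEFs, 8 days after a lentivirus had brought in the 4 factors. Every condition had 1 array, so no difference below has a replicate, a standard deviation or a test, the number of arrays limits the precision, and an effect of Utx and any other difference between the 2 ESC cultures cannot be told apart. The labels give 1 medium for all samples, a serum-free medium with 2 kinase inhibitors and LIF, and say nothing of how the KO allele was made, how many clones were used or whether feeder cells were present.

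Utx, encoded by Kdm6a on the X chromosome, is a demethylase for lysine 27 of histone H3, whose methylation is the mark that Polycomb repressive complex 2 writes and that keeps developmental genes silent in ESCs. It also sits in the complexes that methylate lysine 4 of the same histone at enhancers. ESCs in the medium named by the labels resemble the early epiblast: they divide fast, hold the pluripotency factors high and make little stromal matrix, whereas fibroblasts make collagen, actin stress fibres and the proteins that couple the former to the latter.

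Kdm6a, the targeted gene, read 9.12 in WT and 7.97 in KO ESCs (-1.15). The sources used here do not say whether its probes cover the deleted exons, so a KO value above the floor does not count intact transcripts. The 6 defining ESC markers were above the floor on both arrays and lay within 2-fold of each other, with a median difference of 0.27. Medians of the 2 ESC arrays were 7.81 and 7.84. Genes of the sex chromosomes did not all go with the labels. Xist, the noncoding RNA that coats the inactive X chromosome in female cells, read 8.10 in WT ESCs, above the floor, 6.60 in KO ESCs and between 9.87 and 12.77 on the 5 MEF arrays. The Y-linked Uty and Eif2s3y were under the floor in the library labelled Utx -/Y ESC, with values given further on. In the MEFs, the library labelled KO without doxycycline read 11.26 for Pou5f1 and the library labelled KO with doxycycline read 5.12, against 8.19 and 12.59 in WT, so those 2 libraries go against their labels and only WT MEF arrays, mainly the uninduced one (MEFs below), are set beside the ESCs in numbers.

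Markers of fibroblasts differed between the 2 ESC arrays. Of 37 measured fibroblast and mesenchymal markers, 27 were above the floor on the WT ESC array, 12 on the KO ESC array and 37 on the uninduced WT MEF array. The log2 of their summed level was 15.46 in WT ESCs, 14.13 in KO ESCs and 17.09 in MEFs. Of 7 defining fibroblast markers, 6 exceeded the floor in WT ESCs and 1 in KO ESCs, and their summed level was 11.83, 9.45 and 14.78. Thy1, a surface protein of fibroblasts, read 8.97 in WT and 6.92 in KO ESCs. Prrx1 and Prrx2, mesenchymal homeobox factors, read 9.09 and 5.88, and 8.02 and 5.93. The markers Cdh11, Ddr2, S100a4 and Snai2 differed by -2.59, -2.58, -2.68 and -1.29. Macrophage markers did not show this: 2 of 16, Cd68 and Laptm5, were above the floor on each ESC array and all 16 were in the MEFs. The labels do not say whether either ESC culture held fibroblasts. The part that any fibroblast RNA had in the differences below was not tested. Fewer fibroblasts cannot be told apart from less of their RNA per cell, or from lower levels of these genes in the ESCs themselves. For groups that hold markers, counts outside the marker list are given as well. Those counts leave out the listed markers alone. Other genes that MEFs have at higher levels stay in, so the counts do not take out any part that fibroblasts had.

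Across all genes the 2 ESC arrays were close, and the larger differences lay mostly on the lower side in KO cells. Of the 8598 genes above the floor, 8269 (96.2%) lay within 2-fold, 273 (3.18%) were 2-fold or more lower in KO and 56 (0.651%) were 2-fold or more higher. These 3 percentages are the background for every count below. The median difference was 0.06, the 5th percentile -0.72 and the 95th percentile 0.47, and 7563 genes (88%) differed by less than 0.5. The lower tail was the longer one, with the 1st percentile at -2.13 and the 99th at 0.83. Outside the fibroblast markers the count of lower genes was 253 of 8571.

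**Figure D1:**
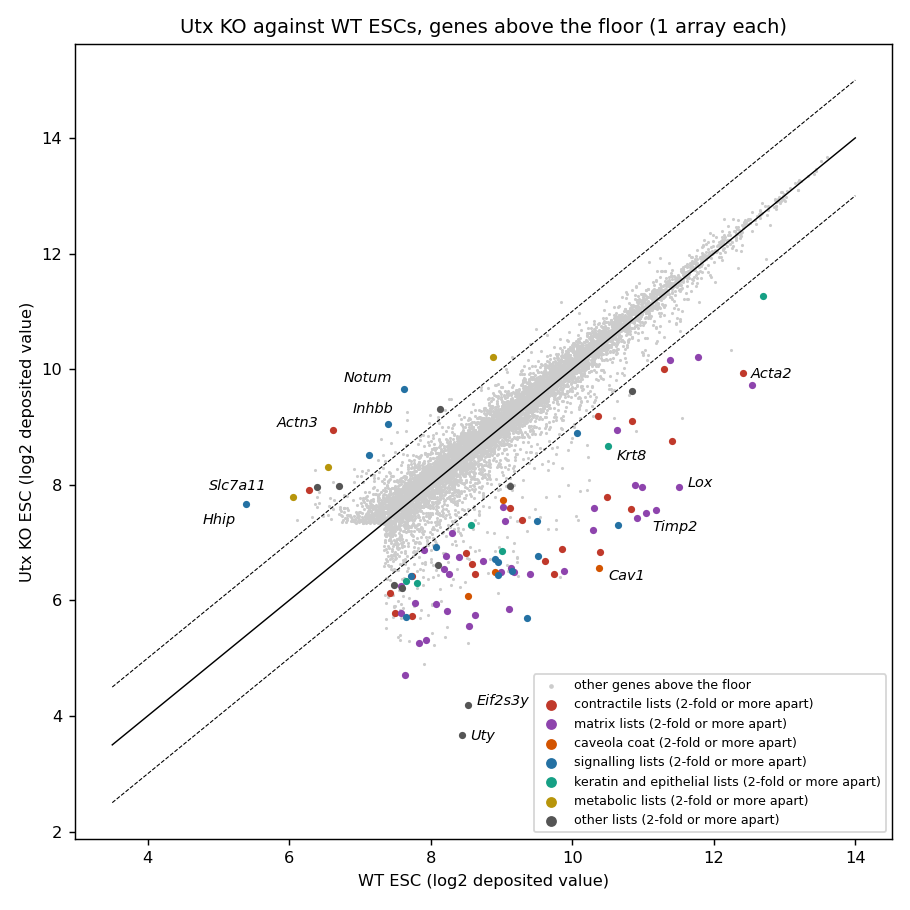
Log2 value in Utx KO ESCs (vertical axis) against WT ESCs (horizontal axis) for the 8598 genes above the floor, 1 array each; the solid line marks equal values and the dashed lines 2-fold. Coloured points are members of the gene lists that were 2-fold or more apart; 86 of them lie below the lower dashed line and 12 above the upper one.

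Many of the lower genes were low to the point of the floor. In 185 of the 273 lower genes the KO value was under 7.34, and in 33 of the 56 higher genes the WT value was. For those the fold is given as at least the higher value over the floor. A gene that passed the floor on 1 array alone was bound to differ, so the counts and medians below, taken over members above the floor, describe these arrays and are no measure of strength. With both ESC arrays required to exceed the floor, 88 genes were lower and 23 higher. Of the 3 contractile lists together 9 genes were then lower in place of 20, of the matrix lists 13 in place of 37, of the signalling lists 6 in place of 16 and of the keratin and epithelial lists 2 in place of 7.

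The lower genes were mostly genes that fibroblasts have at higher levels, and the higher genes mostly were not. Of the 273 lower genes, 243 (89%) were above the floor in uninduced WT MEFs and 228 (83.5%) read higher there than in WT ESCs, against 84.6% and 41.1% of all genes above the floor. Their median was 10.35 in MEFs, 8.61 in WT ESCs and 6.76 in KO ESCs. Of the 56 higher genes, 17 (30.4%) were above the floor in MEFs. For 19 (33.9%) the MEF value exceeded that of WT ESCs, not far from the 41.1% of all genes. The median of the 56 was 6.02 in MEFs, 7.12 in WT ESCs and 8.36 in KO ESCs. The order of WT and KO ESCs in both groups was fixed by how they were chosen.

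Part of the smooth muscle contractile list was lower in KO ESCs. Of 38 measured members, 31 exceeded the floor, 12 of them were 2-fold or more lower and 0 higher, and the list median was -0.80. Among the filament proteins themselves 6 of 9 were lower. Actg2, the gamma actin of visceral smooth muscle, read 10.39 in WT and 6.83 in KO ESCs, at least 8.29-fold lower, and 12.04 in MEFs. Acta2, the alpha actin of vascular smooth muscle and of activated fibroblasts, read 12.41 and 9.94, a difference of -2.47. The WT ESC value of Acta2 lay near the 12.97 of MEFs, and the KO value remained well above the floor. Myl9, a regulatory myosin light chain, read 11.41 and 8.75, 6.30-fold lower. The tropomyosins, which lie along the actin filament, differed unequally, by -1.96 for Tpm2, -1.74 for Tpm1 and -0.70 for Tpm4. Myh11, the heavy chain of smooth muscle myosin, read 7.49 and 5.78, whereas Myh9, the nonmuscle heavy chain, read 10.27 and 9.70 and stayed within 2-fold.

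Proteins that bind and tune the filament gave the same picture in part. Cnn1, calponin of differentiated smooth muscle, read 10.83 and 7.58, 9.51-fold lower, while its relatives Cnn2 and Cnn3 differed by -0.80 and -0.09. Tagln, transgelin, read 10.49 and 7.80. Lmod1, which nucleates actin filaments, read 7.43 and 6.13, and Des, the intermediate filament of muscle, 7.74 and 5.73. A pair of adaptor genes were lower as well: Tgfb1i1 differed by -1.32 and Csrp1 by -1.28. The phosphatase subunit gene Ppp1r12a, which sets the contractile state of the light chain, read 9.74 on both arrays.

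The transcription factor that binds CArG boxes in these genes, Srf, read 8.77 in WT and 8.95 in KO ESCs. Its actin-sensing cofactors read 7.94 and 7.95 for Mrtfa and 8.61 and 8.74 for Mrtfb. None of the 3 was lower in KO cells. Cnn1, Acta2 and Tagln are also on the fibroblast marker list, and without them 9 of 28 members of the contractile list were lower.

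**Figure D2:**
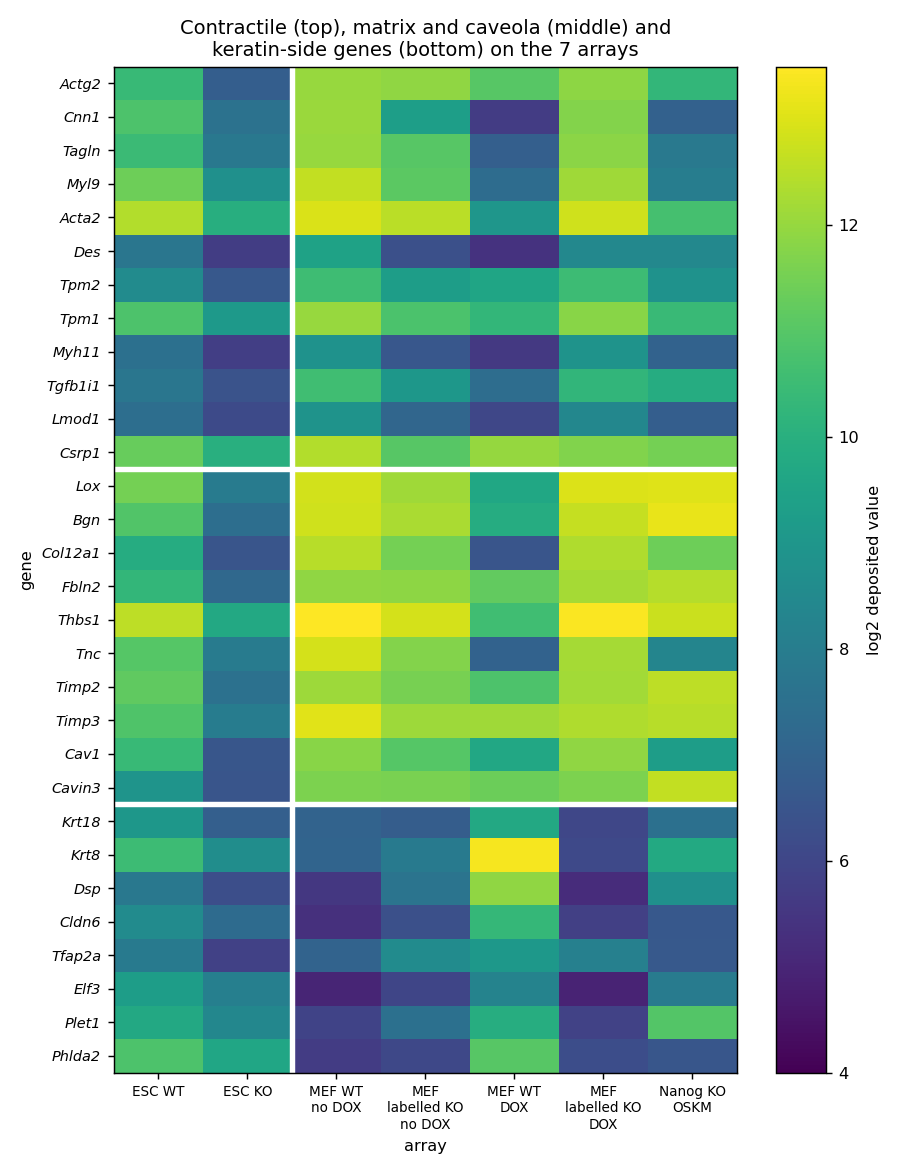
Log2 value (colour) of contractile, matrix, caveola and keratin-side genes (rows) on all 7 arrays (columns), with the 2 ESC arrays left of the white line; arrays whose values go against their labels are marked as labelled. Rows of the upper and middle blocks are brighter in uninduced WT MEFs than in either ESC array. Acta2 is at 12.41 in WT ESCs, 9.94 in KO ESCs and 12.97 in MEFs. The keratin-side block holds Krt18, Krt8, Dsp, Cldn6, Tfap2a, Elf3, Plet1 and Phlda2. These were picked from the lower genes that were not above the floor in those MEFs. Their being darker there than in WT ESCs, with Krt8 at 10.51, 8.67 and 7.07, was thus fixed by the choice.

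CArG boxes were looked for in the promoters of the contractile list. The promoter windows, from RefSeq on GRCm38.p6, ran from 250 bases before to 50 after the start site, and both strands were searched. A CArG box was in the windows of 5 of the 32 list genes that had a window (15.6%), against 1.63% of all 32851 windows. The first share counts genes, with a box in any of their windows, and the second counts windows, so they are on unlike units. The 5 were Myl9, Cnn2, Myl6, Vcl and Srf, with differences of -2.65, -0.80, 0.14, -0.96 and 0.18, so genes with a box in the window did not share a direction. The windows of Myl9, a filament gene that was lower, and Vcl, a dense body gene within 2-fold, are shown around the box, which is in capitals, read 5' to 3' along the gene. The Myl9 stretch is chr2:156775243-156775372 on the plus strand, and the Vcl stretch is chr14:20929148-20929240 on the plus strand.
Myl9: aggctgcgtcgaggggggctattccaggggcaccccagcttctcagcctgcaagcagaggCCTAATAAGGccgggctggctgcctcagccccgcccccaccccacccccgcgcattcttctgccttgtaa
Vcl: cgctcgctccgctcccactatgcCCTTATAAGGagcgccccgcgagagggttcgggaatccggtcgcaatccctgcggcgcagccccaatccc
The box starts at position -161 in Myl9 and at -227 in Vcl, counted from the start site. A match is a run of letters and shows no binding.

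Striated muscle genes did not follow the smooth muscle list. Only 4 of 19 measured members were above the floor, and they split. Actn3, the actinin of the Z disc in fast fibres, read 6.62 in WT and 8.95 in KO ESCs, at least 3.04-fold higher and the largest difference upwards of any gene above the floor. Msc, a repressor of myogenic factors, read 6.28 and 7.91. Acta1, the skeletal alpha actin, went the other way, at 8.50 and 6.82. Actn3 read 7.14 in MEFs, so the KO ESC value was above that of MEFs as well.

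At focal adhesions, where integrins hold the actin filament to the matrix, 7 of 24 genes above the floor were lower and 0 higher, with a median of -0.37. Parva, parvin alpha, read 9.29 and 7.39, and Zyx, zyxin, 9.13 and 7.60. Itgb1, the beta 1 integrin shared by most matrix receptors, read 10.37 and 9.18. The core link itself differed less: Tln1, talin, by -0.42, Ilk by -0.26 and Pxn, paxillin, by -0.06. The actin turnover part of the list also held membrane-binding annexins. Of these, Anxa1 (9.75 and 6.46) and Anxa2 (9.85 and 6.89) were at least 5.30-fold and at least 5.70-fold lower. S100a6, listed there too, differed by -2.92. The severing protein Gsn, gelsolin, differed by -2.17. The bulk actin genes were level, with Actb at 13.42 and 13.38, Pfn1 at 12.94 and 12.91 and Cfl1 at 12.21 and 12.31. No member of this list is a fibroblast marker of the list used here, yet its median in MEFs was 11.45, above the 10.28 of WT and the 9.70 of KO ESCs.

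Caveolae, flask-shaped pits of the plasma membrane held by caveolins and cavins, had several coat genes under the floor in KO ESCs. Cav1, the main caveolin outside muscle, read 10.38 in WT ESCs, 6.56 in KO ESCs and 11.83 in MEFs, at least 8.25-fold lower in KO and the lowest gene after 2 Y-linked ones. Cavin3 read 8.92 and 6.49, and Cavin1, which is needed for the coat to form, 9.02 and 7.74. Ehd2, an ATPase at the neck of the pit, read 8.53 and 6.07. Pacsin2, which bends membrane also elsewhere in the cell, read 10.29 and 10.24. Of 6 genes above the floor, 4 were lower.

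Matrix genes were lower in KO ESCs in 37 of 72 cases above the floor, with 0 higher and a median of -1.09. Without 12 fibroblast markers the count was 29 of 60. The fibrillar collagens Col1a1 and Col1a2, which assemble as type I collagen, read 10.30 and 7.59, and 9.40 and 6.46. Col12a1, which decorates the fibril surface, read 9.88 in WT and differed by -3.37, at least 5.81-fold lower. Col8a1 read 9.17 and 6.48, and Col5a2, which sets the width of type I fibrils, 7.58 and 5.78. The endoplasmic reticulum enzymes and chaperones that fold collagen lay within 2-fold: P4ha1 differed by -0.86, Serpinh1 by -0.78, Plod1 by -0.55 and Plod2 by -0.12. Bmp1, the protease that trims procollagen outside the cell, read 9.02 and 7.61.

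Genes for proteins that bind, crosslink or stretch with the fibrils were lower in part. Bgn, biglycan, a small proteoglycan, read 10.92 and 7.42, 11.3-fold lower, Prelp read 8.22 and 5.82 and Ogn 7.63 and 4.72. The lysyl oxidases oxidise lysines so that collagen and elastin crosslink, and all 3 above the floor were lower, Lox at 11.51 and 7.96, Loxl1 at 8.41 and 6.76 and Loxl3 at 8.22 and 6.77. In the elastic fibre group, Fbln2, fibulin 2, read 10.29 and 7.21, Fbln5 9.13 and 6.55 and Efemp1, a fibulin as well, 8.19 and 6.55. Mfap5, a microfibril glycoprotein, differed by -2.50. The latent TGF-beta binding proteins of this group parted: Ltbp2 and Ltbp1 differed by -1.80 and -1.05, and Ltbp4 by 0.47. Of 12 crosslinking and elastic fibre genes above the floor, 9 were lower, with a median of -1.65, and outside the markers 7 of 10 were. When both arrays had to exceed the floor, that median was 0.071 over the few genes left, so the group value rests on genes that KO ESCs had under the floor.

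Matricellular proteins, which signal from the matrix rather than build it, were lower in 12 of 18 cases together with the adhesive proteins, and in 11 of 15 outside the markers. Thbs1, thrombospondin 1, read 12.55 in WT and 9.73 in KO ESCs, 7.03-fold lower, with the KO value still far over the floor. Tnc, tenascin C, read 10.99 and 7.96, and Ccdc80 11.04 and 7.52. Postn, periostin, a fibroblast marker, read 9.11 and 5.85, and Thbs2 8.62 and 5.75. The CCN proteins Ccn1 and Ccn2 read 10.63 and 8.95, and 11.78 and 10.21, and their relatives Ccn4 and Ccn5, which Wnt signalling can induce, differed by -2.13 and -2.06. Cd44, the hyaluronan receptor, and Has2, a hyaluronan synthase, read 7.94 and 5.32, and 7.58 and 6.25. Fn1, fibronectin, read 12.79 and 12.49, Sparc 12.74 and 11.91 and Tgfbi 7.96 and 7.93, all within 2-fold. Both a protease side and an inhibitor side were lower: Timp2 read 11.18 and 7.56, 12.3-fold lower, Timp3 10.89 and 7.99, Adamts5 8.55 and 5.56 and Mmp13 7.83 and 5.27. Adamts1, Adam19 and Mmp2, a gelatinase, differed by -1.83, -1.68 and -1.13. Timp1 (-0.68) and the membrane protease Mmp14 (-0.37) lay within 2-fold. Of 13 matrix protease and inhibitor genes above the floor, 7 were lower, with a median of -1.13, and outside the markers 5 of 11 were.

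Genes of the basement membrane, the sheet that epithelia and the early embryo make, differed little where they exceeded the floor. Of 17 measured, 6 did not, among them Col4a1 and Col4a2, which encode chains of collagen IV. Of 11 genes above the floor, 0 were 2-fold apart, where 96.2% of all genes lay within 2-fold, and the median was -0.15. Lama1 and Lamc1, chains of the embryonic laminin, read 9.56 and 10.10, and 11.05 and 11.22. Lamb1, their partner, read 8.32 and 7.70. Nid1, Nid2 and Hspg2, which link laminin to collagen IV, differed by -0.15, 0.13 and 0.20.

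**Figure D3:**
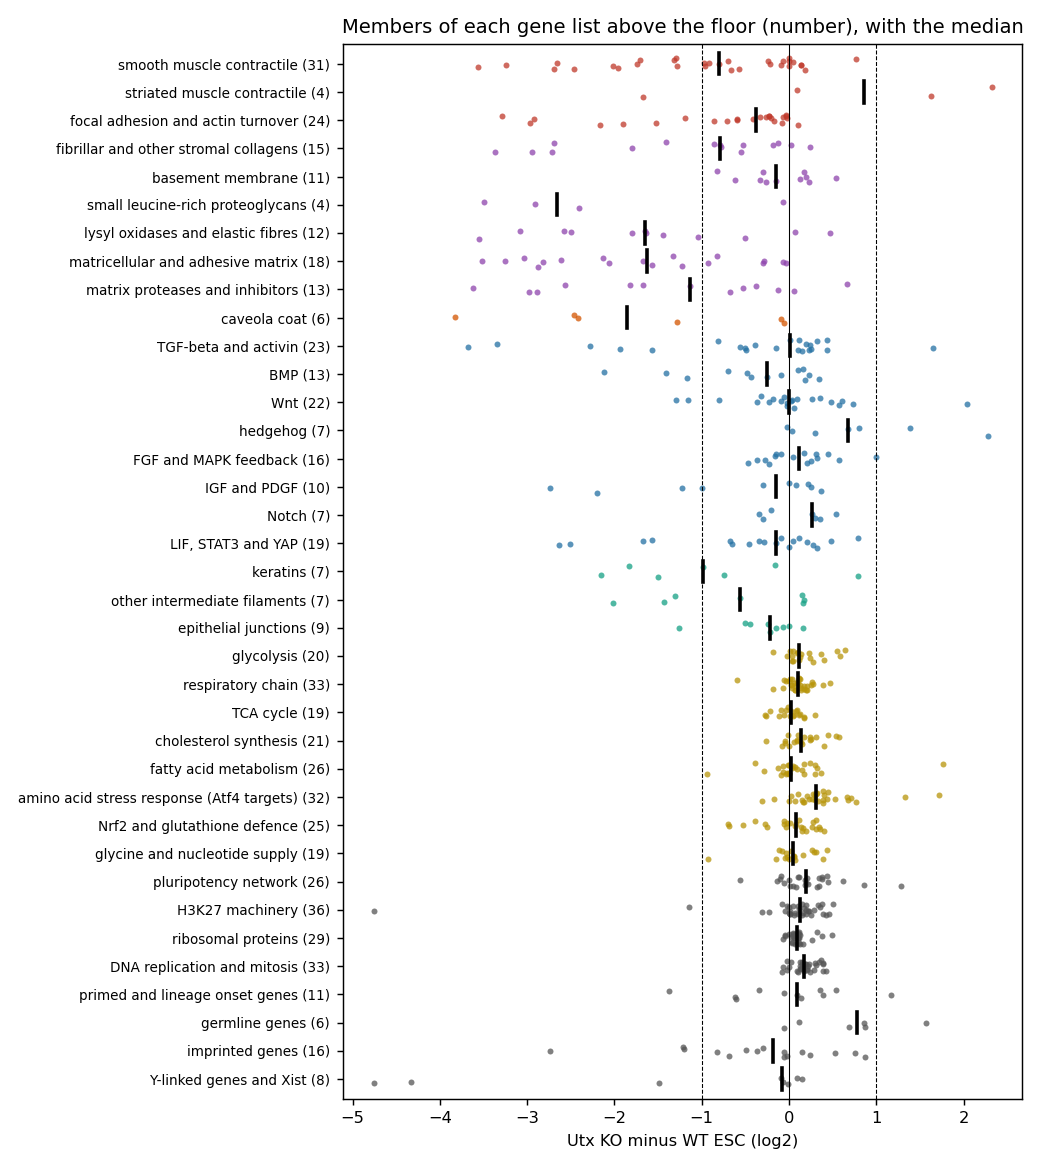
Difference between KO and WT ESCs (log2, horizontal axis) for each member above the floor (points) of each gene list (rows, number of members in brackets); black bars mark list medians and dashed lines 2-fold. Medians of the small proteoglycan, lysyl oxidase, matricellular, matrix protease and caveola lists lie left of the 2-fold line. They are -1.65 for lysyl oxidases and elastic fibres, -1.13 for matrix proteases and inhibitors and -1.85 for the caveola coat. Metabolic lists lie close to 0, with medians from 0.02 to 0.31.

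Of 23 keratin, intermediate filament and junction genes above the floor 7 were lower and 0 higher, and outside the markers 6 of 22 were lower. Krt8 and Krt18 were among them and were not above the floor in MEFs. Krt8 and Krt18, the pair of simple epithelia and of the trophectoderm, read 10.51 and 8.67, and 9.01 and 6.86, against 7.07 and 7.03 in MEFs. Dsp, desmoplakin, which anchors keratin at desmosomes, read 7.80 and 6.30. Jup, plakoglobin, differed by -0.16 and Pkp2 by -0.75. Of 25 keratin and linker genes measured, 18 did not exceed the floor on either ESC array. Krt17, above the floor in KO alone, read 6.70 and 7.49. Other intermediate filaments that were lower were Vim, vimentin, at 12.70 and 11.27, and Lmna, lamin A and C, at 7.65 and 6.34. Des, at 7.74 and 5.73, was lower too and is counted with the contractile genes as well. The B-type lamin genes Lmnb1 and Lmnb2 differed by 0.16 and 0.15.

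Epithelial junction genes mostly did not follow the keratins. Cdh1, E-cadherin, read 10.89 and 10.75, Tjp1 read 9.74 on both arrays and Epcam 8.33 and 7.88. Cldn6, a claudin of early embryonic epithelia, was the exception at 8.57 and 7.30. Of 9 junction genes above the floor 1 was lower. On the trophoblast marker list, Krt8 and Krt18 were the 2 of 8 genes above the floor, so the other markers of that lineage, such as Cdx2 and Elf5, were not above it or not measured.

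Krt8, Krt18, Dsp and Cldn6 belong to 30 lower genes (11%) that were not above the floor in uninduced WT MEFs, against 15.4% of all genes above the ESC floor. This group was picked after its values were seen. Others in it were Elf3, an epithelial transcription factor, at 9.31 in WT and 8.08 in KO ESCs, and Plet1, a surface protein of trophoblast and endoderm precursors, at 9.73 and 8.38. Tfap2a, a factor of surface ectoderm and trophoblast, read 7.87 and 5.84, and Pou2f3, a POU factor of tuft cells and epidermis, 8.04 and 5.93. Phlda2, an imprinted gene of the placenta, read 10.84 and 9.63. In WT MEFs with doxycycline Krt8 read 13.36, Dsp 11.92, Cldn6 10.31 and Phlda2 11.05, above both ESC arrays in each case.

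Most signalling genes lay within 2-fold. Of 116 above the floor, 16 were lower and 4 higher, with a median of 0.01, and outside the markers 15 of 114 were lower. The lower ones include Bmp1, listed with the BMP ligands although it is the procollagen protease counted among the matrix genes as well. In the TGF-beta and activin family 4 of 8 ligands above the floor were lower and 1 was higher. The inhibitor Lefty2 is counted among these ligands. Tgfb3 read 9.37 in WT and 5.69 in KO ESCs, at least 4.07-fold lower, and Tgfb2 8.95 and 6.66, whereas Tgfb1 read 8.08 and 7.58. The activin subunits went opposite ways. Inhba, which forms activin A, read 10.65 and 7.30 and 11.92 in MEFs, while Inhbb, which forms activin B, read 7.40 and 9.05 and 7.78 in MEFs. Nodal, which pluripotent cells make, read 10.01 and 10.45, and Gdf3 10.65 and 11.08. Lefty2, an inhibitor of Nodal and a target of its signal, read 7.65 and 5.71, at least 1.24-fold lower, and Lefty1 was not above the floor.

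The machinery that reads these ligands was close to level. Tgfbr1 read 8.65 and 8.76, Acvr1b 8.75 and 8.60, and Tdgf1, the coreceptor for Nodal, 12.34 and 12.58. Smad2, Smad3 and Smad4 differed by 0.23, -0.56 and 0.19. The inhibitory Smad7, itself a target, read 9.75 and 10.08. In the BMP branch, Bmp4 read 10.07 and 8.90 and the BMP antagonist Grem1 9.50 and 7.38, so a ligand and an inhibitor were both lower. The Id genes, which BMP induces, differed by -0.10 for Id1, 0.10 for Id2 and -0.25 for Id3.

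Hedgehog genes were the signalling list with the highest median, 0.68 over 7 genes above the floor, although none of its 3 ligands exceeded the floor. Gli1, a transcription factor and a direct target of the pathway, read 7.13 in WT and 8.52 in KO ESCs, at least 2.26-fold higher. Hhip, a membrane protein that binds and removes hedgehog ligands and is also a target, read 5.40 and 7.67, at least 1.26-fold higher. Ptch1, the receptor and a further target, read 8.92 and 9.73, and Gli2 9.10 and 9.78, both within 2-fold. Smo, Gli3 and Sufu differed by 0.30, -0.03 and 0.04. In uninduced MEFs Gli1 read 5.96 and Hhip 5.62, below the floor. The median moved to 0.30 when both arrays had to exceed the floor and to 0.076 over all 12 measured genes.

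**Figure D4:**
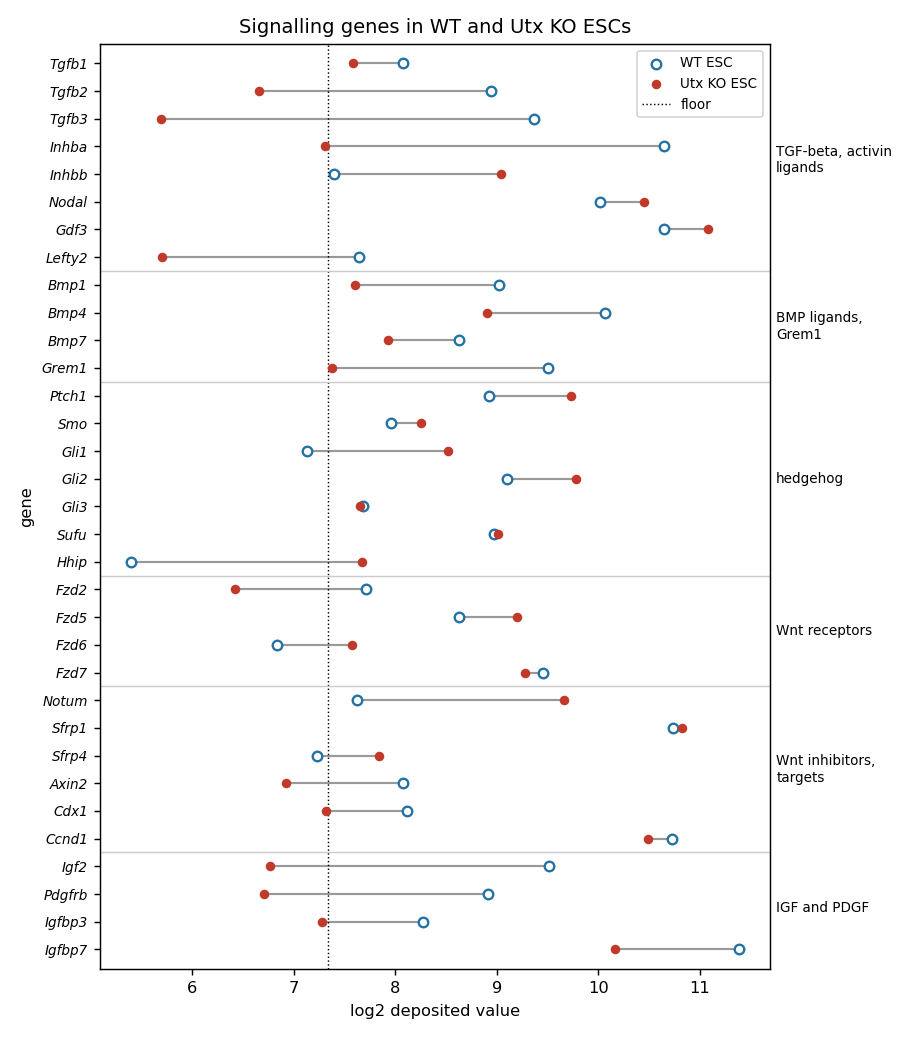
Log2 value of signalling genes in WT ESCs (open circles) and Utx KO ESCs (filled circles), 1 array each, grouped by pathway; the dotted line is the floor. The TGF-beta ligands Tgfb3 and Inhba fall below the floor in KO cells, and Inhbb, Gli1, Hhip and Notum lie to the right in KO cells. Bmp1, grouped with the BMP ligands, is the procollagen protease.

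In the Wnt pathway 2 of 22 genes above the floor were lower and 1 higher, and none of 11 measured Wnt and R-spondin ligands exceeded the floor. Notum, an esterase that inactivates Wnt proteins outside the cell, read 7.62 and 9.66, 4.12-fold higher in KO. Axin2, a feedback inhibitor that Wnt signalling induces, read 8.08 and 6.92, and Cdx1, another target, 8.12 and 7.32. The receptor gene Fzd2 read 7.72 and 6.42. Ctnnb1, beta-catenin, read 11.73 and 11.71 and Tcf7l1, its repressive partner in ESCs, 9.61 and 9.97. Notum and Axin2 are both induced by the pathway in many tissues, and here they differed in opposite directions.

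In the IGF and PDGF list 3 of 10 genes above the floor were lower, 2 of 9 outside the markers, and 0 were higher. Igf2, a fetal growth factor, read 9.51 and 6.77, Pdgfrb, a receptor of mesenchymal cells and 1 of the fibroblast markers, 8.91 and 6.71, and Igfbp7 11.39 and 10.16. Igf1r, Insr and Pdgfa differed by 0.25, 0.22 and 0.08. In the FGF list 0 of 16 genes above the floor were 2-fold apart. The largest difference, that of a ligand, was 0.99, just short of 2-fold. Fgf4, the autocrine ligand of ESCs, read 10.89 and 11.21, and the feedback genes Dusp6 and Spry4 differed by 0.57 and -0.22. Notch genes were also within 2-fold, 7 of 7, and so were 96.2% of all genes above the floor. Targets of the cofactor Yap were lower in 4 of 6 cases, Axl at 9.15 and 6.51, Ankrd1 at 8.95 and 6.43, and Ccn1 and Ccn2 as above, while Yap1 itself read 9.71 and 9.75 and all 6 pathway genes lay within 2-fold. Lifr, the receptor for LIF, read 8.94 and 9.74, and its targets Socs3, Klf4 and Tfcp2l1 differed by 0.32, 0.11 and -0.01.

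Energy metabolism was nearly the same on the 2 arrays. Of 194 metabolic genes above the floor, 191 lay within 2-fold, 3 were higher and 0 lower. The share within 2-fold among all genes was 96.2%. Glycolysis had a median of 0.12 over 20 genes, with Hk2 at 9.75 and 10.12, Pkm at 12.04 and 12.14 and Ldha at 11.69 and 11.74. The respiratory chain had 0.10 over 33, the TCA cycle 0.02 over 19 and cholesterol synthesis 0.14 over 21, close to the 0.06 of all genes. The largest difference in size within each of 3 lists was that of Aldoc, an aldolase, at 0.64 in glycolysis, of Cox6b2, a testis-type subunit of complex IV, at -0.59 in the respiratory chain, and of Cyp51, a sterol demethylase, at 0.57 in cholesterol synthesis. In the fatty acid list, Slc27a2, a fatty acid transporter and acyl-CoA synthetase, read 6.54 and 8.31 and 4.65 in MEFs, while Fabp5, a fatty acid binding protein, read 8.24 and 7.30. Gldc, which cleaves glycine and is high in pluripotent cells, read 9.38 and 8.46.

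Genes of the amino acid stress response, which the factor Atf4 switches on when amino acids run short, lay within 2-fold in 30 of 32 cases, and 2 were higher. Of the 32 above the floor, 29 had a difference over 0 and the median was 0.31, against 5290 of 8598 genes and 0.06. The count over 0 was like that of other lists within 2-fold: 29 of 33 for DNA replication and mitosis, with a median of 0.17, and 18 of 20 for glycolysis, with 0.12. Slc7a11, the cystine importer, read 6.06 in WT and 7.78 in KO ESCs, at least 1.36-fold higher, and 9.33 in MEFs. Chac1, which degrades glutathione, read 8.89 and 10.21, 2.51-fold higher, and 10.33 in MEFs. These were the members 2-fold apart. Trib3, a feedback inhibitor of Atf4, differed by 0.76, Psph, the last enzyme of serine synthesis, by 0.72, and Slc7a3, an arginine and lysine transporter, by 0.67. Atf4 itself read 9.39 and 9.79, whereas Asns, asparagine synthetase and a classic target, read 12.66 on both arrays. All 5 aminoacyl-tRNA synthetase genes lay between 0.20 and 0.32. Most of these differences are smaller than 2-fold and no replicate shows how far 2 cultures of 1 genotype would differ.

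**Figure D5:**
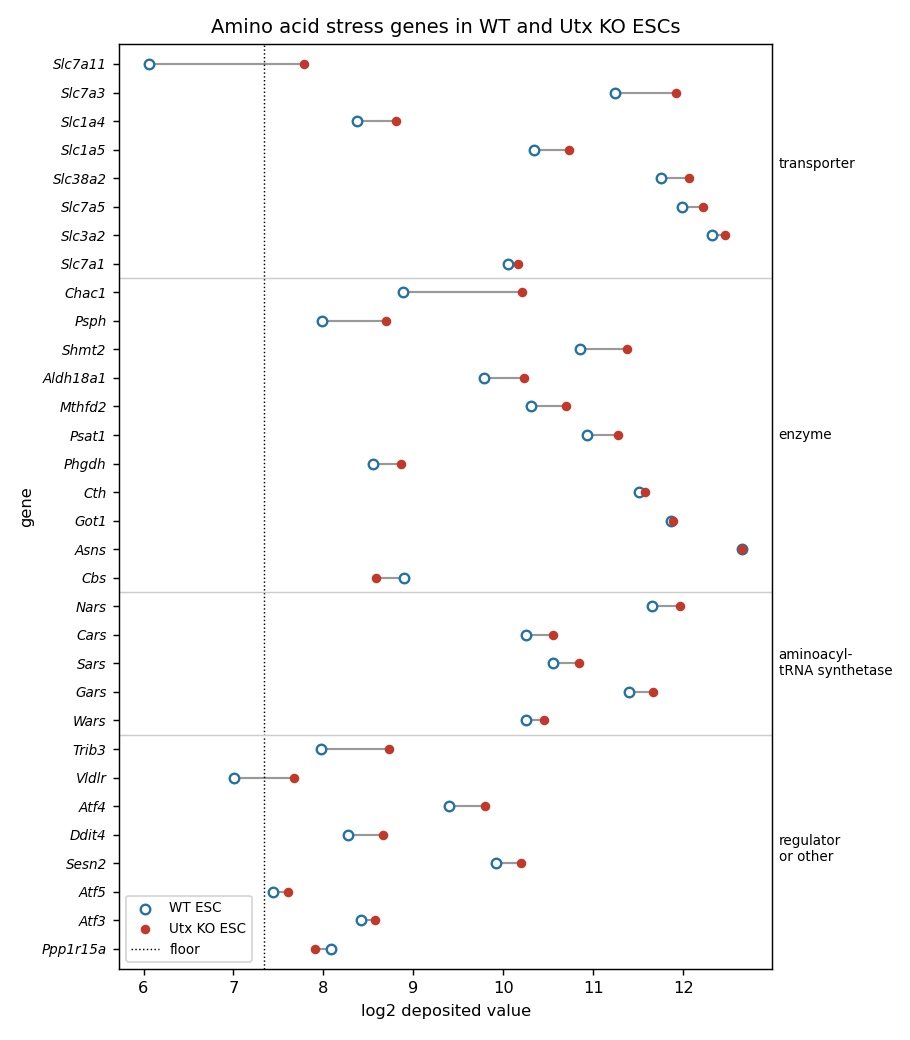
Log2 value of genes of the amino acid stress response in WT ESCs (open circles) and Utx KO ESCs (filled circles), 1 array each, grouped by role; the dotted line is the floor. In 29 of 32 genes the KO value lies to the right of the WT value, and only Slc7a11 and Chac1 are 2-fold apart.

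No member of the amino acid stress list is a fibroblast marker, and its median was 9.84 in MEFs, 10.15 in WT ESCs and 10.34 in KO ESCs. The list of Nrf2 targets and glutathione enzymes, a second set of stress genes, had a median of 0.08 over 25 genes and 0 that were 2-fold apart. That 0 depends on how genes were placed. Slc7a11, the cystine importer, and Chac1, which degrades glutathione, were counted in the amino acid stress list and not in the Nrf2 list. Of the Nrf2 list, the glutathione synthesis genes Gclc and Gclm differed by 0.40 and 0.36, and Hmox1, haem oxygenase, and Gpx1 by -0.70 and -0.69.

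The core of the amino acid response element, TGATGNAA on either strand, was looked for in list genes with a promoter window. It was in 9 of 26 genes of the amino acid stress list (34.6%), in 0 of 22 of the Nrf2 list and in 3.97% of all windows. The core of the antioxidant response element, TGACNNNGC, was in 7 of 26 (26.9%), 9 of 22 (40.9%) and 12.4%. The list shares count genes and the last share counts windows, so they are on unlike units. Only Asns held both, at -23 and -172, without overlap. The stretches of the 2 genes that were 2-fold apart are shown with this first core in capitals. The Chac1 stretch is chr2:119350992-119351116 on the plus strand with 1 core at -193, and the Slc7a11 stretch is chr3:50443614-50443739 on the minus strand with cores at -66 and -47.
Chac1: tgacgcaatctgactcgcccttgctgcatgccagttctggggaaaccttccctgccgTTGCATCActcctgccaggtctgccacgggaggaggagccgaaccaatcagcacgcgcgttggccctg
Slc7a11: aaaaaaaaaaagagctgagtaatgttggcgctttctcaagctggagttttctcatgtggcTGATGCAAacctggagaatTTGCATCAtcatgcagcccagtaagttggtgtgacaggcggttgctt
The other 7 list genes with the core were Trib3, Vldlr, Slc1a4, Gars, Atf3, Got1 and Asns, with differences of 0.76, 0.67, 0.43, 0.27, 0.16, 0.02 and -0.0011. Holders of the core thus ranged from no difference to the 2 that were 2-fold apart, and no relation was tested.

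The pluripotency network was level, with 25 of 26 genes within 2-fold and a median of 0.19. Among all genes above the floor 96.2% lay within 2-fold, and the median was 0.06. Pou5f1 read 12.14 and 12.32, Nanog 12.28 and 12.59 and Sox2 11.26 and 11.70. Prdm14, which guards the ground state, read 8.81 and 9.67, and Eras, a Ras-like protein of ESCs, 6.70 and 7.99, the single member 2-fold apart. Dnmt3l, a cofactor of DNA methylation, read 10.41 and 9.85. Of genes that mark exit from pluripotency few were above the floor. Zic2, a factor of primed cells and neural tissue, read 8.14 and 9.31, Otx2 7.38 and 7.77, Dnmt3b 8.16 and 7.55 and Dab2, an endocytic adaptor of primitive endoderm that MEFs also have at 10.90, 7.59 and 6.21.

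The enzymes that write and read methylation of H3 lysine 27 did not shift with Kdm6a. Kdm6b, the other active demethylase, read 8.83 and 8.97. Ezh2, the methyltransferase, read 10.98 and 11.19, Suz12 11.05 and 11.03 and Eed 10.45 and 10.81. The partners of Utx in the lysine 4 methyltransferase complexes, Kmt2c, Kmt2d, Paxip1, Ncoa6 and Pagr1a, differed by 0.11, 0.16, 0.01, 0.07 and 0.17. Only Kdm6a and the Y-linked Uty were 2-fold apart among 36 genes. Uty read 8.44 and 3.68 and Eif2s3y, also Y-linked, 8.52 and 4.19, while the X-linked partner Eif2s3x read 11.45 and 11.35, although the labels give both cultures a Y chromosome.

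Genes of housekeeping processes differed little, in a comparison where 96.2% of all genes above the floor lay within 2-fold. All 29 ribosomal protein genes lay within 2-fold, from Rps19 at -0.07 to Rpl14 at 0.50, with a median of 0.09. All 33 genes of DNA replication and mitosis did so too, with a median of 0.17, Mcm2 at 11.17 and 11.33, Mki67 at 10.23 and 10.63 and Cdk1 at 11.26 and 11.44. Imprinted genes, whose expression depends on the parent of origin, were mixed: beside Igf2 and Phlda2, the noncoding RNA Rian read 7.48 and 6.27 and its neighbour Meg3 10.33 and 9.51, whereas Mest differed by 0.87 and Grb10 by 0.53. Germline genes had a higher median than these groups, 0.77 over the 6 above the floor. Of the 6, 1 was 2-fold higher and 0 were lower, where 0.651% of all genes were higher. It was D1Pas1, a DEAD-box helicase of the testis, at 6.39 and 7.96. Kit, a receptor of germ cells, read 9.30 and 9.99.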

How the data were processed

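RNA of 7 mouse samples was measured on 1 Affymetrix array each. The submitters' processing notes name RMA and Affymetrix Expression Console for the log2 values that the authors deposited. RMA subtracts background, brings arrays to 1 distribution and joins probes into 1 value. The sources used here give neither versions nor a genome build. The labels name a labelling kit for 3-prime arrays, while the probe identifiers are of a whole-transcript kind. The table had 21811 rows and 0 missing values: 14894 rows had 1 gene symbol in the platform annotation, 925 had several and 5992 were unnamed here. RefSeq (GRCm38.p6) held the gene identifiers of 14854 rows. Of 13562 genes, 754 had several rows; 6 of these were 2-fold apart, and in 0 did the rows differ in sign.

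Groups came from the labels. Differences were taken per gene with Python 3.11.15, numpy 2.4.6 and pandas 2.3.3. With 1 array per condition there is no test and no replicate, and depth has no counterpart on arrays. A gene counted as 2-fold apart where the log2 difference was 1 or more in size and the higher ESC value exceeded the floor. "At least" folds set the lower side to the floor.

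The members and gene lists were chosen with earlier results of these data known. Named are the 15 largest differences in each direction, list members 2-fold apart and otherwise up to 4 largest and 3 smallest per list. Part of the signalling members above the floor are named too, and so are Kdm6a, Kdm6b, Uty, Nanog, Pou5f1 and Sox2. A few members named to round off a pathway were chosen after their values were seen. Endothelial markers (3 of 8 above the floor) had 0 genes 2-fold apart, and primitive endoderm markers (5 of 11) had 1, Dab2. Promoter sequences are those of RefSeq on GRCm38.p6. Alternatives were array scaling, the floor, the threshold, the mean over rows and a floor on both arrays.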

Additional observations from a re-analysis of the deposited data

How the results depend on the processing

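No paired analysis was possible because each condition has 1 array, and leaving out a replicate was not possible for the same reason. Aligned array medians shifted the median gene from 0.06 to 0.03 and quantile normalization to 0.02; under both, and with the rows of a gene averaged, the 10 counts stayed within 1.5 times and the 111 named genes kept their sign and side of the threshold. With the floor at the 60th percentile (8.48) 152 genes were lower and 26 higher. Of these, 23 matrix genes and 4 of the keratin and epithelial lists were lower and 1 metabolic gene was higher. With both ESC arrays above the floor 88 were lower and 23 higher. Of these, 9 contractile, 13 matrix and 6 signalling genes and 2 of the keratin and epithelial lists were lower. On the higher side were 2 signalling genes and 1 metabolic gene. At 1.5-fold 572 were lower and 236 higher, with 10 signalling and 9 metabolic genes higher and 5 metabolic genes lower. Of the counts 52 of 70 stayed within 1.5 times the main one.

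List medians followed the floor. With no floor they were -0.12 (striated muscle), -0.46 (small proteoglycans), -0.93 (lysyl oxidases and elastic fibres), -1.08 (matricellular), -1.28 (caveola), 0.076 (hedgehog), -0.16 (keratins), -0.12 (other intermediate filaments) and 0.16 (germline). With the 60th percentile they were 0.32 (striated muscle), -1.79 (small proteoglycans), -2.54 (lysyl oxidases), -2.42 (caveola), -0.48 (BMP), -1.83 (keratins) and 0.85 (primed and lineage onset). With both arrays above the floor they were -0.57 (smooth muscle), -0.55 (collagens), -1.79 (small proteoglycans), -1.08 (matricellular), -0.53 (proteases), -0.10 (caveola), 0.30 (hedgehog), 0.077 (IGF and PDGF), 0.027 (Notch), -0.20 (other intermediate filaments) and 0.40 (germline), and the lysyl oxidase and elastic fibre median turned from -1.65 to 0.071. That setting drops the genes that KO ESCs had under the floor. A list median was taken as moved beyond 0.23, the spread of all differences.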

Other observations

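Genes outside the gene lists also differed; those named here were chosen after their values were seen. Penk, which encodes the opioid precursor proenkephalin, read 9.82 in WT ESCs and 6.40 in KO ESCs, and Cyp1b1, a cytochrome P450, 8.53 and 5.25. The chemokines Ccl7 and Cxcl14 read 9.08 and 6.62, and 9.21 and 6.75, and Csf1, the growth factor of macrophages, 9.16 and 6.85. Ptgs2, the inducible cyclooxygenase, read 10.91 and 8.93, and Ptges, a prostaglandin E synthase, 9.57 and 8.36. F3, tissue factor, read 10.06 and 7.46. Cdkn2b, a cell cycle inhibitor, read 8.36 and 6.97, and Hoxc8, a gene of trunk patterning, 7.70 and 6.04. All 10 were higher in uninduced WT MEFs than in WT ESCs, Penk at 12.46 and Ccl7 at 11.67 among them.

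On the higher side outside the lists, Dpp4, a surface peptidase, read 6.37 in WT, 8.25 in KO ESCs and 4.94 in MEFs. Sall3, a zinc finger factor, read 7.67 and 9.12, and Cpsf4l 7.66 and 9.26. Sohlh2, a factor of early germ cells, read 6.39 and 7.62, and Ddx43, a helicase of the germline, 6.62 and 8.05. Fam171b and Aard differed by 1.45 and 1.40, and Slc26a10 read 7.30 and 8.79.

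Rows without a gene name had the opposite balance to named rows. Among 3219 unnamed rows that exceeded the floor, 76 (2.36%) were higher by at least 2-fold in KO ESCs and 23 (0.715%) were lower. Of 9511 rows with 1 symbol, 61 (0.641%) were higher and 277 (2.91%) lower. The sources used here do not say what the unnamed rows measure.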
